A study of Mus musculus with 9 samples.

Results

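Pinlyp and Abhd4 are 2 of 30050 genes that had a transcript cluster with a single gene symbol on 9 Affymetrix mouse arrays. Each had 1 such cluster, and no cluster with several symbols held either. They were chosen by their measured rise in doxorubicin-treated against control cells, which was among the strongest of all genes, so their values in that contrast, and in any contrast with the same control arrays, are described here without a test. The RNA came from cells labelled HL-1, a mouse cardiomyocyte cell line. The Con group received phosphate-buffered saline (PBS). The DOX group received doxorubicin at 0.3 µM. The DOX_IFNg group received that dose together with interferon gamma at 20 ng/ml. Each of the 3 groups had 3 arrays. A group with interferon gamma but without doxorubicin was not analysed here, and the sources used here do not give the treatment time. The labels do not say that replicates are separate cultures, and p-values then measure array-to-array spread alone, part or all of which may be technical.

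Both genes touch the handling of membrane phospholipids. Phospholipases A2 cut one fatty acid from a phospholipid, which frees fatty acids such as arachidonic acid and leaves a lysophospholipid. Pinlyp is named for its likeness to phospholipase A2 inhibitors and for its Ly6/PLAUR domain, a small fold held by disulphide bonds that many secreted and membrane-anchored proteins share. Abhd4 is an alpha/beta hydrolase that removes acyl chains from N-acylated phospholipids, a step on one route to the N-acylethanolamines, the lipid family of anandamide. Doxorubicin is an anticancer anthracycline that poisons topoisomerase II, and interferon gamma is a cytokine that acts through a receptor coupled to Jak kinases.

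The stretches before the starts of both genes are shown because, by the RefSeq starts of build GRCm38.p6, each gene was transcribed away from a close neighbour whose values are given below. The start of Abhd4 lay 200 bases from that of Dad1, with 199 bases between them. The start of Pinlyp in the promoter table lay 694 bases from that of Xrcc1. A longer transcript model of Pinlyp, whose gene span reaches to base 24546668, begins nearer to Xrcc1. Most of the bases between these 2 starts thus lie inside that model, and 694 is not the smallest distance of this pair. Capitals mark matches to searched motifs on either strand.
Abhd4, all bases between its start and that of Dad1, chr14:54253930-54254128, + strand: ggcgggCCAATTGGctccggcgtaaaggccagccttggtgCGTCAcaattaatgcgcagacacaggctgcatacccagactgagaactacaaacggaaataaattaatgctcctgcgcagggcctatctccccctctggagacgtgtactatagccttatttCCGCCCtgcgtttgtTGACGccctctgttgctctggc
Pinlyp, 250 bases before its start, chr7:24546006-24546255, − strand: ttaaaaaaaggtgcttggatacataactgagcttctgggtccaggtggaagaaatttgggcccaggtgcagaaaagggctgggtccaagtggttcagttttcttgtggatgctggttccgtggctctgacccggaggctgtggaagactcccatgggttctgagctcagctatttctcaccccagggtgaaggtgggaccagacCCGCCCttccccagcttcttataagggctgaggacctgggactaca

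Motifs were searched in the 250 bases before each start in the promoter table, which for Pinlyp leaves out the start of a longer transcript model. The GC box GGGCGG matched once in each window, in the window of Abhd4 at its first start, in that at a further start inside the gene, and in that of Pinlyp, against 32.7% of 32851 promoter windows of the same length. The window at the first start of Abhd4 also held the CCAAT box on both strands, in matches that overlap (33.8% of windows), and 2 matches to TGACG, the core of the cAMP response element (17.8%). No searched window of either gene held the TATA box core TATAAA, the E-box CACGTG, the AP-1 letters TGANTCA, the ATF4-type letters TGATGNAA, the interferon gamma activated letters TTCNNNGAA or a p53 half-site. These were present in 12.4%, 6.02%, 6.75%, 3.45%, 7.02% and 7.13% of all windows. The search took only the exact letters TATAAA, and the stretch shown for Pinlyp holds the near match TATAAG close to its end. The window of Pinlyp held 3 CG dinucleotides and that at the first start of Abhd4 held 20, with a median of 6 over all windows. The array table gives 1 value per gene and does not separate the starts. A longer RefSeq transcript model of Pinlyp begins further upstream, so the window shown lies inside the span of that model. The bases before the start of that model were not searched.

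The values are read as log2 expression levels. Differences between groups are log2 differences of group means fitted to all 9 arrays with limma, given with their standard errors (SE). Array medians lay between 4.08 and 4.17. As a mark of dim signal, the 95th percentile of 1714 olfactory and vomeronasal receptor genes, which lay at 4.69, is called the dim limit below, and 40.4% of genes lay above it. Several markers that define heart muscle were under this limit in Con. Myh6, the main cardiac myosin heavy chain, lay at 4.29, Nppa, the atrial natriuretic peptide, at 3.97, and Myl7, an atrial myosin light chain, at 4.12. Only 3 of 12 cardiomyocyte markers were above the limit there, against 6 of 9 skeletal myogenic, 4 of 7 fibroblast, 1 of 7 immune and 0 of 6 endothelial markers. The 3 cardiomyocyte markers above it were Tnnt2 at 7.94, Mef2c at 5.89 and Nkx2-5 at 5.39. Most markers that define the labelled cell type were thus at dim signal. The highest value was identical on 6 arrays, namely all those of DOX, replicates 1 and 2 of DOX_IFNg and replicate 1 of Con. Values of the members are therefore also given within these 6 arrays.

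Pinlyp showed the largest rise of all genes in doxorubicin-treated cells, with or without interferon gamma. Its level was 5.69, 6.22 and 6.37 on the Con arrays, 10.79, 11.59 and 10.36 on the DOX arrays, and 9.44, 10.07 and 10.55 on the DOX_IFNg arrays. All 3 Con arrays were above the dim limit, and the lowest treated array was 3.07 above the highest Con array. The mean was 6.09 ± 0.36 (SD, n = 3) in Con, 10.91 ± 0.62 in DOX and 10.02 ± 0.56 in DOX_IFNg. DOX minus Con was 4.82 (SE 0.36), a 28.3-fold difference and rank 1 of 30050. DOX_IFNg minus Con was 3.93 (SE 0.36), a 15.2-fold difference that again ranked 1. These contrasts share the Con arrays, so the second is no independent check of the first. Within the 6 arrays that share the largest value, which hold 1 Con array, the differences were 5.22 and 4.07. Among the other 3 arrays, which hold no DOX array, DOX_IFNg minus Con was 4.26.

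Abhd4 rose less than Pinlyp and differed less among the arrays of a group. Its level was 6.85, 6.69 and 7.05 on the Con arrays, 9.57, 9.79 and 9.38 on the DOX arrays, and 9.35, 9.59 and 9.84 on the DOX_IFNg arrays. The treated arrays formed 1 range from 9.35 to 9.84, in which DOX and DOX_IFNg were intermixed, and every one was at least 2.3 above every Con array. The mean was 6.87 ± 0.18 (SD, n = 3) in Con, 9.58 ± 0.20 in DOX and 9.59 ± 0.25 in DOX_IFNg. DOX minus Con was 2.72 (SE 0.15), a 6.57-fold difference and rank 8. DOX_IFNg minus Con was 2.73 (SE 0.15), a 6.62-fold difference and rank 10. Within the 6 arrays that share the largest value the differences were 2.73 and 2.62, and among the other 3 arrays DOX_IFNg minus Con was 2.97.

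**Figure D1:**
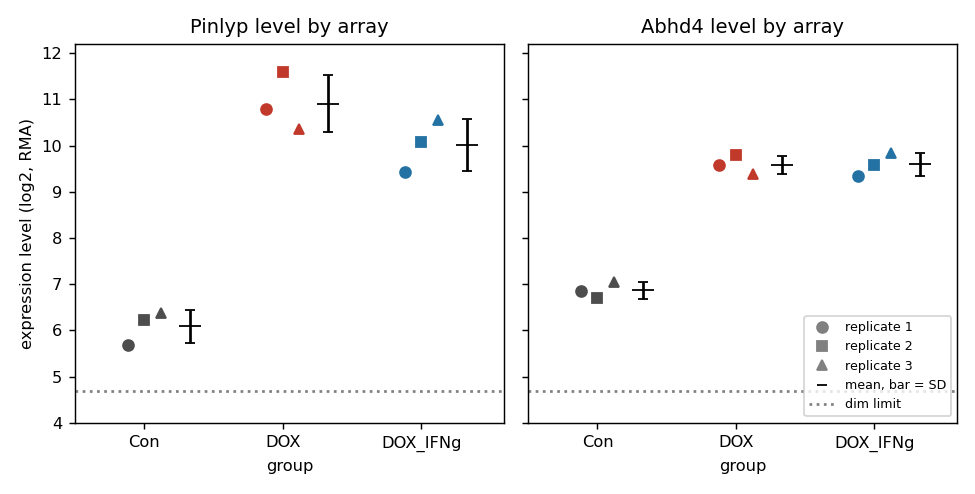
Level of Pinlyp (left) and Abhd4 (right) on each array in log2 units, by group, with the symbol giving the replicate number, the black bar the group mean with SD (n = 3), and the dotted line the dim limit of 4.69. Pinlyp spans 5.69 to 6.37 in Con and 9.44 to 11.59 in the treated groups, and Abhd4 spans 6.69 to 7.05 and 9.35 to 9.84.

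Across all genes, 15.6% were called in DOX minus Con at a limma adjusted p under 0.05, 8.06% higher and 7.53% lower, and 17.4% in DOX_IFNg minus Con, 8.01% higher and 9.41% lower. Both members were among the higher calls, a count that the way they were picked fixes. Of the calls, 51.7% were higher in DOX minus Con and 46.0% in DOX_IFNg minus Con, and quantile normalization moved these shares to 61.7% and 57.5%. Quantile normalization gave a DOX minus Con of 4.89 for Pinlyp and 2.76 for Abhd4. Markers moved between the same groups. In DOX minus Con, 4 of 7 fibroblast markers fell and 1 rose, and 4 of 9 skeletal myogenic markers fell and 2 rose. The summed linear level of the fibroblast list was 213231 to 254242 in Con, 104333 to 112713 in DOX and 103009 to 106155 in DOX_IFNg, and 1 gene, the collagen Col1a1, made up 95.8% of it in Con. That of the skeletal myogenic list was 820 to 969, 468 to 543 and 423 to 483, and Acta1 made up 38.9% of it in Con and 41.3% in DOX. In this list Acta1 went from 8.41 in Con to 7.71 in DOX, Myog from 8.18 to 4.76 and Myod1 from 6.03 to 6.78. They are named after their values were seen. The sum of the cardiomyocyte list, in which 1 of 12 fell, was 474 to 535, 363 to 384 and 353 to 371. Tnnt2 made up 48.4% of the cardiomyocyte sum in Con and 28.1% in DOX. The immune list (143 to 150, 151 to 163 and 142 to 151) had 1 of 7 higher. The endothelial list lay between 90.9 and 96.8 on every array and had 0 of 6 called, with 0 at an unadjusted p under 0.05. The part of these shifts in the rises of Pinlyp and Abhd4 was not tested, and in bulk RNA a change in the number of cells of a type and a change in RNA per cell cannot be told apart.

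**Figure D2:**
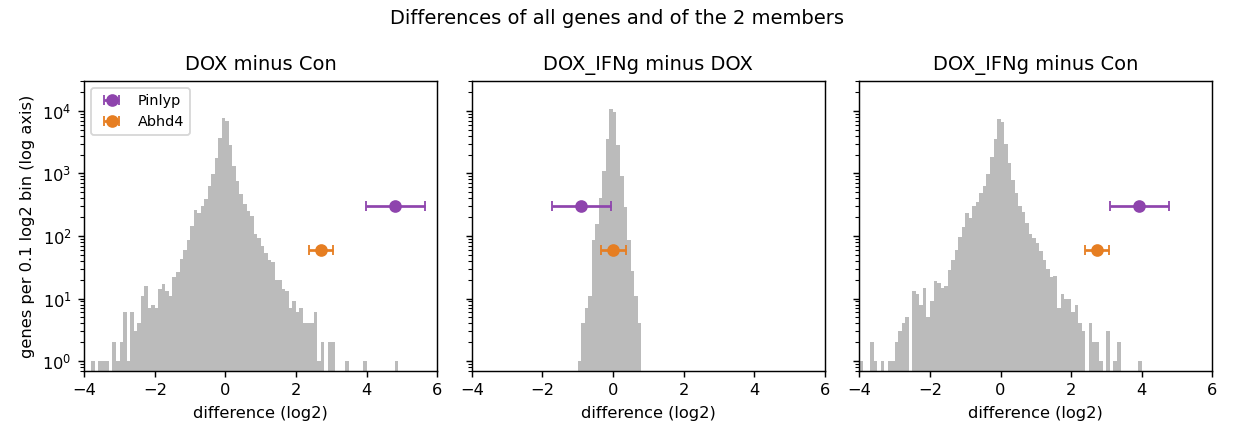
Number of genes per bin of 0.1 log2 units (grey, log axis) against the difference in each of the 3 comparisons, with the difference and 95% interval of Pinlyp and Abhd4 as points whose height carries no value. Pinlyp lies at 4.82 and 3.93 in the comparisons with Con and at -0.89 in DOX_IFNg minus DOX, where Abhd4 lies at 0.01.

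Adding interferon gamma to doxorubicin was the comparison not used to pick the genes, although it shares the DOX arrays with that choice. Pinlyp lay 0.89 lower in DOX_IFNg than in DOX (difference -0.89, SE 0.36, 95% interval -1.73 to -0.06), a 1.86-fold lower level. The highest DOX_IFNg array (10.55) exceeded the lowest DOX array (10.36), so the groups overlapped. The difference did not pass in limma (adjusted p = 0.976 over all genes, and between 0.478 and 1 over the alternatives), although its 95% interval without adjustment left out 0. By size it was rank 2 among the lower differences of all genes. Without DOX replicate 2 it was -0.55, without DOX_IFNg replicate 1 it was -0.60, and without DOX replicate 3 it was -1.17. Within the 6 arrays that share the highest value it was -1.16. Abhd4 differed by 0.01 (SE 0.15, 95% interval -0.33 to 0.36, limma adjusted p = 0.999), and its arrays overlapped between the groups. Its sign turned in some settings, with -0.11 within the 6 arrays. In this comparison limma called 0 of 30050 genes (0%) in either direction, and 1503 genes (5.0%) had an unadjusted p under 0.05.

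The gap between Pinlyp and Abhd4 on the same array is given as a description, since both genes were chosen on the DOX arrays and the gap was looked at after the values were seen. Pinlyp minus Abhd4, whose absolute size has no meaning because they are different probes, was 1.33 ± 0.42 (SD, n = 3) in DOX and 0.43 ± 0.31 in DOX_IFNg, against -0.78 ± 0.35 in Con. The DOX arrays lay between 0.97 and 1.80 and the DOX_IFNg arrays between 0.09 and 0.71. The difference of these mean gaps, DOX_IFNg minus DOX, was -0.90, and -0.94 with quantile-normalized values. No test is given for it.

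Among the treated arrays the levels of both genes moved up and down together within each group. In DOX, replicate 2 was highest and replicate 3 lowest for both genes, and in DOX_IFNg, replicate 3 was highest and replicate 1 lowest for both. In Con, replicate 3 was highest for both, but replicate 1 was lowest for Pinlyp and replicate 2 for Abhd4. As a description, the deviations from the group means had a Pearson r of 0.84 over the 9 arrays and of 0.98 over the 6 treated arrays. The first was higher than that of 96.7% and the second than that of 99.6% of the other 30049 genes with Pinlyp. Over the 3 Con arrays r was 0.28, higher than that of 50.1% of the other genes. The points share arrays, and any property of a whole array that moves many genes enters these values. With quantile-normalized values the r of Pinlyp and Abhd4 over 9 arrays was 0.81.

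**Figure D3:**
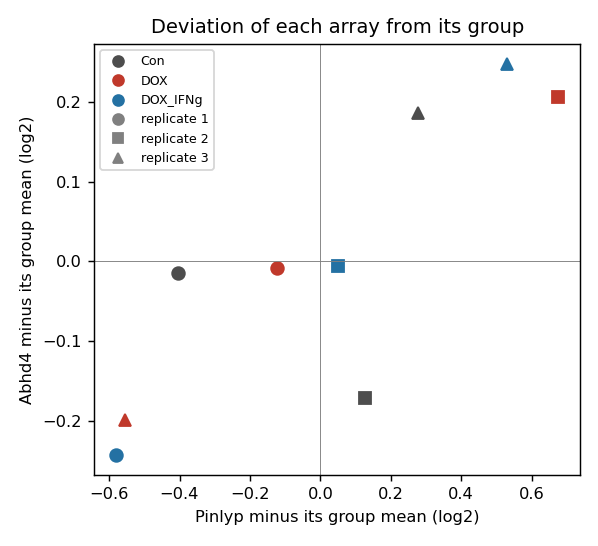
Level of Pinlyp (horizontal) and Abhd4 (vertical) on each of the 9 arrays minus the mean of its group, in log2 units, with colour for the group and symbol for the replicate number. The 6 treated arrays run from lower left (DOX_IFNg replicate 1 at -0.58 and -0.24) to upper right (DOX replicate 2 at 0.68 and 0.21), while Con replicate 2 lies at 0.13 and -0.17.

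Other genes had profiles closer to each member than the members had to each other. Likeness was the Pearson r over the 9 arrays among 509 protein-coding candidates whose group means spanned at least 1 log2 unit. It is dominated by the step from Con to the treated groups, and 259 candidates had an r over 0.9 with Pinlyp. The 5 genes most like Pinlyp were Sox9, a transcription factor of cartilage and progenitor cells (r = 0.996), Gadd45g, a growth arrest and stress gene (0.995), Rnf166, a ubiquitin ligase (0.994), Aup1, a protein of lipid droplets and endoplasmic reticulum degradation (0.993), and Vac14, a scaffold of the phosphoinositide kinase complex PIKfyve (0.993). DOX_IFNg minus DOX was -0.31 in Sox9, -0.60 in Gadd45g, -0.16 in Rnf166, -0.24 in Aup1 and -0.14 in Vac14, and limma called none of these 5. Gadd45g, for example, lay at 8.68, 8.75 and 9.12 in Con, 12.84, 13.02 and 12.42 in DOX, and 11.64, 12.33 and 12.52 in DOX_IFNg. Its arrays ran in the same order as those of Pinlyp in every group, at a smaller scale.

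The 5 genes most like Abhd4 were Slc6a8, the creatine transporter (r = 0.999), Parp12, a mono-ADP-ribosyltransferase (0.998), Atp6v1d, a subunit of the vacuolar ATPase (0.998), Tmem43, a nuclear envelope protein (0.997), and Lims2, a focal adhesion adaptor (0.997). Their DOX minus Con differences were 2.00, 1.45, 3.08, 2.24 and 3.43. In these genes DOX_IFNg and DOX lay within 0.10 of each other. Slc6a8 lay at 7.14, 7.12 and 7.31 in Con, 9.19, 9.39 and 9.0 in DOX, and 9.0, 9.15 and 9.28 in DOX_IFNg. Abhd4 itself ranked 82 among the candidates for likeness to Pinlyp (r = 0.978), and Pinlyp ranked 119 for likeness to Abhd4.

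The genes beside each member on the chromosome were looked at next. Of the 5 measured protein-coding genes on each side of Pinlyp, 2 of 10 were called higher and 0 lower in DOX minus Con, with a median difference of -0.03, against 8.06% and 7.53% of all genes. The first was Xrcc1, the scaffold protein of DNA single-strand break repair, whose start faces away from that of Pinlyp. Xrcc1 lay at 5.31, 5.24 and 5.50 in Con, 6.38, 6.37 and 6.34 in DOX, and 6.18, 6.44 and 6.39 in DOX_IFNg. It rose by 1.01 in DOX minus Con (SE 0.09, limma adjusted p = 0.000124) and by 0.99 in DOX_IFNg minus Con (SE 0.09, adjusted p = 0.000134). The second was Ethe1, a mitochondrial sulphur dioxygenase, which rose by 0.44 and 0.27. Plaur, the urokinase receptor and a relative of Pinlyp in the Ly6/PLAUR family, lay 4 genes away and differed by -0.10 (SE 0.07) and was not called. The nearest gene on the other side, Irgq, differed by -0.18 and was not called either. Cadm4, an adhesion molecule, was called lower in DOX_IFNg minus Con (-0.37), a call lost under quantile normalization (-0.05, adjusted p = 0.735).

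Around Abhd4, 1 of 10 neighbours was called higher and 1 lower in both comparisons with Con, against 8.06% and 7.53% of all genes in DOX minus Con and 8.01% and 9.41% in DOX_IFNg minus Con. These counts are near the shares over all genes. The lower one was Dad1, a subunit of the oligosaccharyltransferase that shares the 199-base stretch shown above. Dad1 fell by 0.57 in DOX minus Con (SE 0.10, limma adjusted p = 0.00594) and by 0.52 in DOX_IFNg minus Con, while Abhd4 lay 2.72 higher. Its Con level of 4.68 was just under the dim limit, and the DOX minus Con call was lost within the 6 arrays that share the highest value (adjusted p = 0.119), where 1 Con array remained and the difference was as large (-0.576). The higher one was Slc7a7, a light chain of an amino acid transporter, with rises of 0.48 and 0.58 from a Con level of 4.24. The other 8 neighbours, of which 5 were olfactory receptor genes, differed by -0.18 to 0.17 in DOX minus Con. A start within 1000 bases of the start of another protein-coding gene transcribed away from it was found for 8.48% of 17492 genes in the promoter table, and this layout was looked at after the values were seen.

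**Figure D4:**
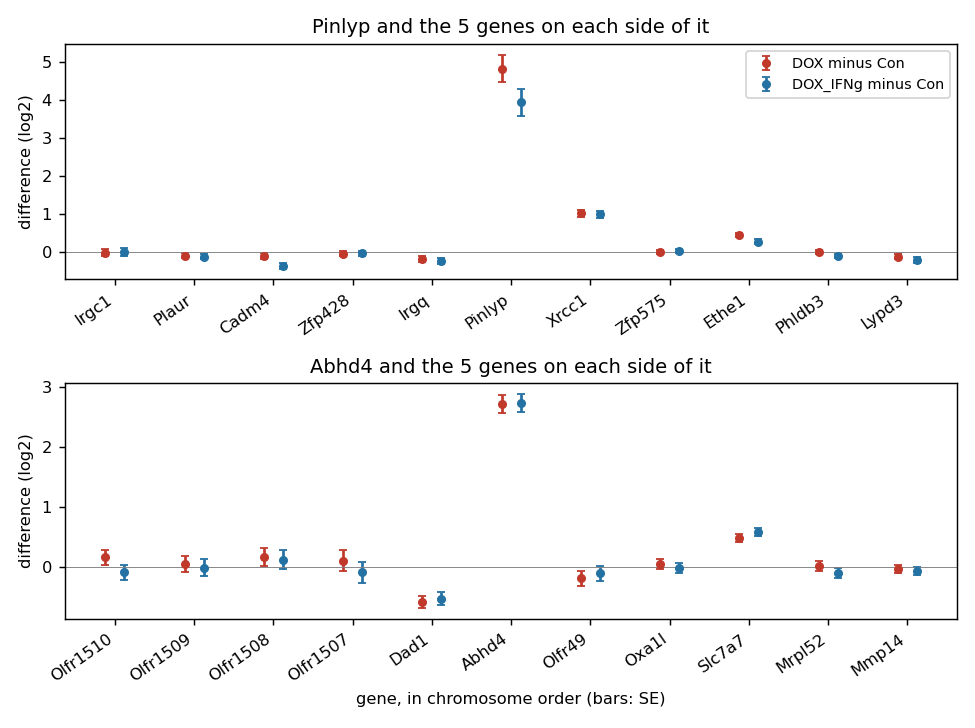
Difference in log2 units, with SE bars, of Pinlyp (top) and Abhd4 (bottom) and of the 5 measured protein-coding genes on each side in chromosome order, for DOX minus Con (red) and DOX_IFNg minus Con (blue). Xrcc1 rises by 1.01 beside Pinlyp and Dad1 falls by 0.57 beside Abhd4, while most other neighbours lie near 0.

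Other genes of the lipid pathways that the members are named for are given by list. The members were chosen as strong risers, so a smaller difference in the other genes follows from that choice. Over 7 lists counted once, 140 genes other than the members were measured, and 11 rose and 7 fell in DOX minus Con (12.9% called, against 15.6% of all genes). Their differences lay between -0.75 and 1.94. In DOX_IFNg minus Con 11 rose and 9 fell (14.3% called, against 17.4% of all genes). In DOX_IFNg minus DOX limma called 0 of them, with 7 at an unadjusted p under 0.05. No call changed direction in any alternative setting. The counts by list below stand beside 8.06% of all genes called higher and 7.53% called lower in DOX minus Con. In DOX_IFNg minus Con these shares were 8.01% and 9.41%.

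In the N-acylethanolamine pathway, where Abhd4 acts, 2 of 13 other genes rose in DOX minus Con and 0 fell. Their median difference was -0.000969, against -0.01 over all genes. Among the N-acyltransferases that make the substrate of Abhd4, Hrasls (now Plaat1) averaged 5.28 ± 0.06 in Con and 5.85 ± 0.09 in DOX (SD, n = 3), and rose by 0.58 (SE 0.06, limma adjusted p = 0.000413). Pla2g16 (now Plaat3) was called at 0.31 (adjusted p = 0.0498), but the call was lost in 7 of the 9 fits that left out 1 array, with an adjusted p of at most 0.140. It stood without replicate 3 of Con and without replicate 1 of DOX_IFNg. Napepld, the phospholipase D of the parallel route, differed by 0.11 (SE 0.06) and was under the dim limit in Con. Gde1, the phosphodiesterase that follows Abhd4, differed by -0.11 (SE 0.08) from 6.46. The hydrolases Faah and Naaa, which break down N-acylethanolamines, differed by -0.02 and -0.04 and were both dim, at 4.14 and 4.13. None of these 4 was called (adjusted p between 0.268 and 0.871).

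Among the alpha/beta hydrolase relatives of Abhd4, 1 of 19 rose and 3 fell in DOX minus Con, and in DOX_IFNg minus Con 0 rose and 3 fell. The largest of these, Abhd17c, a depalmitoylating enzyme, fell by 0.49 (SE 0.09, adjusted p = 0.00667) and by 0.72 (adjusted p = 0.000855). Abhd6, a monoacylglycerol hydrolase, fell by 0.27, but leaving out DOX replicate 1, or Con replicate 1 or 3, ended its call (adjusted p at most 0.0698). Abhd14b fell by 0.48, but leaving out 1 of the DOX arrays, or Con replicate 2, ended its call (adjusted p at most 0.104). Abhd5, the coactivator of triglyceride lipase and the closest-named relative, rose by 0.29 (adjusted p = 0.0308). This call ended when replicate 2 of any group was left out, and also without replicate 3 of Con or replicate 1 of DOX (adjusted p at most 0.102). The other fallers in DOX_IFNg minus Con were Abhd6 (-0.22), whose call is described with the 2-arachidonoylglycerol genes below, and Abhd17a. Abhd17a was called (-0.31), but leaving out replicate 1 or 3 of DOX_IFNg ended its call (adjusted p at most 0.0719).

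Of the phospholipases A2 and their receptor, which include the enzymes that Pinlyp is named for inhibiting, 4 of 26 rose and 0 fell in DOX minus Con. No secreted or cytosolic enzyme of the list was among these 4. Only 6 of the 26 genes lay above the dim limit over all arrays, and most secreted and cytosolic enzymes were under it. A change in these dim enzymes may not be measurable here. Pnpla2, the adipose triglyceride lipase, rose by 0.69 (SE 0.08, adjusted p = 0.000801). Pla2r1, the receptor of secreted phospholipases A2, rose by 0.41 (SE 0.05, adjusted p = 0.000496), and Pla2g6, a calcium-independent enzyme, by 0.39 (adjusted p = 0.00257). Pnpla7, a lysophospholipase, rose by 0.30 (adjusted p = 0.0107). Pla2r1 and Pnpla7 were under the dim limit in Con. Cytosolic Pla2g4a, which releases arachidonic acid, lay 0.41 higher (SE 0.14) in DOX, which did not pass (adjusted p = 0.0915), and rose by 0.68 in DOX_IFNg minus Con (adjusted p = 0.0115). The secreted Pla2g12a differed by -0.05 from a Con level of 4.45, under the dim limit. In DOX_IFNg minus Con 5 of 26 rose and 1 fell. The faller was Pla2g15, a lysosomal enzyme, which is named after its values were seen. Its call (-0.27) ended without replicate 2 or 3 of Con, or replicate 1 or 3 of DOX_IFNg, and that of the rise of Pnpla2 by 0.40 without DOX_IFNg replicate 2 (adjusted p = 0.0512).

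In the Ly6/PLAUR family, to which Pinlyp belongs, limma called 0 of 40 other genes in either comparison with Con, with 2 and 3 at an unadjusted p under 0.05. Their DOX minus Con differences lay between -0.27 and 0.28. Only 2 of the 40 lay above the dim limit over all arrays, so a change in most of these genes may not be measurable here.

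Enzymes that act on the products of phospholipases A2 included 4 of 20 that fell and 1 that rose in both comparisons with Con. Ptgis, prostacyclin synthase, fell by 0.75 (SE 0.06, adjusted p = 6.37e-05). Lta4h, which makes leukotriene B4, fell by 0.73, Lpcat3, which puts polyunsaturated chains back onto lysophospholipids, by 0.72, and Lpcat1 by 0.34. Lypla1, an acyl-protein thioesterase first described as a lysophospholipase, rose by 0.43. Ptgs2, the inducible cyclooxygenase, lay 0.45 higher (SE 0.18) and was not called (adjusted p = 0.134). It is named after its values were seen.

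Among genes of neutral lipid storage and lipolysis, 4 of 18 rose and 0 fell in DOX minus Con. Dgat2, which makes triglyceride from diacylglycerol, had the largest rise of any list gene. It lay at 6.63, 6.55 and 6.86 in Con, 8.64, 8.86 and 8.36 in DOX, and 8.32, 8.38 and 8.56 in DOX_IFNg. Dgat2 rose by 1.94 in DOX minus Con (SE 0.13, 3.84-fold, adjusted p = 4.02e-05) and by 1.74 in DOX_IFNg minus Con (adjusted p = 6.69e-05). Plin2, a lipid droplet coat protein, rose by 0.51 (SE 0.08, adjusted p = 0.00221). The other risers, Pnpla2 and Abhd5, are given above. In the 2-arachidonoylglycerol branch of the endocannabinoids, 1 of 11 genes rose and 1 fell in DOX minus Con. Dagla, which makes this lipid, rose by 0.34 (adjusted p = 0.00650), and the faller was Abhd6. In DOX_IFNg minus Con the calls of Dagla (0.22) and Mgll, the main hydrolase of this lipid (-0.26), were lost in 7 and 6 of the 9 fits that left out 1 array. The third call of this list, Abhd6 (-0.22), was lost in 7 of them, all but those without Con replicate 2 or DOX replicate 1, and under quantile normalization (adjusted p = 0.0599). The calls of Dagla stood without DOX replicate 2 or 3, and those of Mgll without these or Con replicate 1.

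**Figure D5:**
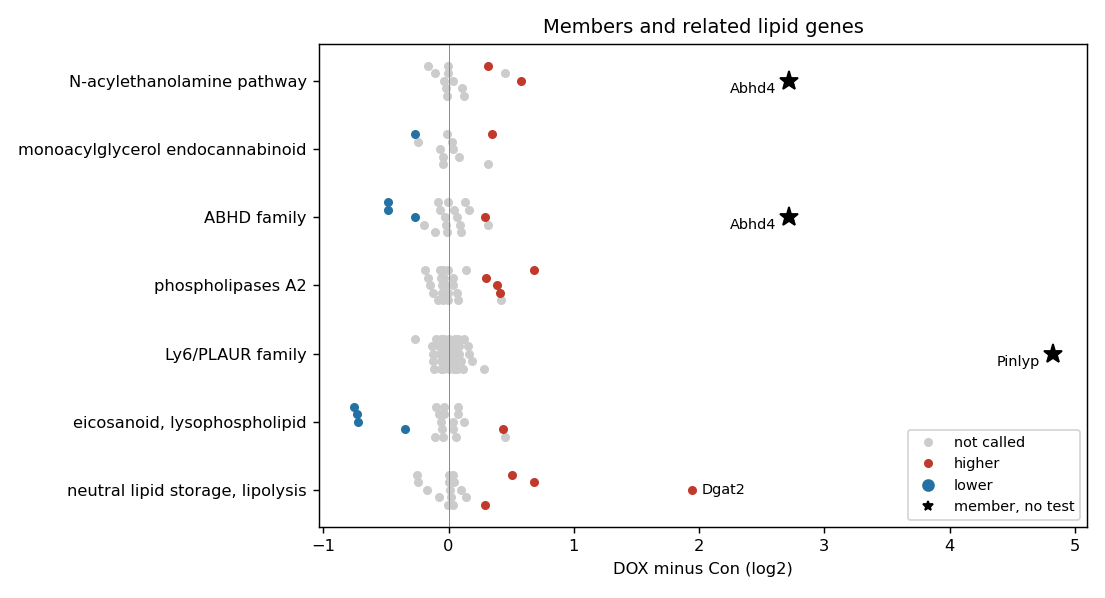
DOX minus Con in log2 units for every measured gene of 7 lipid-related lists (rows, vertical offset only to separate points), coloured by limma call, with Pinlyp and Abhd4 as stars. The stars lie at 4.82 and 2.72, and the list gene closest to them is Dgat2 at 1.94.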

How the data were processed

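Per the submitters' processing notes, RMA made the log2 values that the authors deposited, a table of 65527 transcript clusters on 9 arrays. No version or settings of RMA are named in the labels, and the range of the values (2.29 to 19.9) is the basis for reading them as log2. The platform annotation gave a single symbol for 30376 clusters and several for 2117, and did not list 33034. The cluster with the highest mean stood for a gene with more than 1. RefSeq (GRCm38.p6) gave biotypes, gene order and promoter sequences. All 9 arrays were fitted with limma 3.58.1 (lmFit, eBayes) in R 4.3.3, with 6 residual and 2.41 prior degrees of freedom and Benjamini-Hochberg adjustment over 30050 genes, and every adjusted p is from limma. The fit was tested on simulated data. Precision is limited by having 3 arrays a group. The members, lists and settings were chosen with earlier results of these data known. Besides the members, the text names up to 5 called genes per list, 9 genes of interest whether called or not, 5 neighbours on each side and the 5 most alike genes, and says where it goes beyond this. Alternatives were quantile normalization, a filter on dim genes, a replicate block, fits of only the groups compared, leaving out each array, the arrays that share the highest value as a block or alone, an intensity trend, and all clusters. List genes without a single-symbol cluster were not analysed here.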

Additional observations from a re-analysis of the deposited data

How the results depend on the processing

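Over the alternatives, 147 values of the members and of calls over all genes and 37 counts of list calls stayed as reported, in direction and side of the threshold, or within the replicate spread or 1.5 times. The 147 include values that could not move. The differences of the members from Con are fixed under the dim filter, replicate block, fits of only the groups compared, intensity trend and all clusters. They are also fixed when an array of the third group is left out. With 1 array left out, Pinlyp gave 4.48 to 5.10 in DOX minus Con, 3.66 to 4.22 in DOX_IFNg minus Con and -1.17 to -0.55 in DOX_IFNg minus DOX, and Abhd4 gave 2.61 to 2.82, 2.6 to 2.85 and -0.11 to 0.13. The sign of Abhd4 in DOX_IFNg minus DOX also turned with the array set as a block (-0.054) and within the 6 arrays that share the highest value (-0.112). Within the other 3 arrays Abhd4 gave 2.97 in DOX_IFNg minus Con, where limma called 0 genes from 3 arrays, with 4034 at an unadjusted p under 0.05. Calls over all genes were 2457 in DOX minus Con and 2234 in DOX_IFNg minus Con within the 6 arrays, which are fewer samples, against 4687 and 5234. With 1 array left out they were 3329 to 4568, 3770 to 4974 and, in DOX_IFNg minus DOX, 0 to 1, where the 1 call, without Con replicate 3, was Olfr1208, named after its values were seen. Quantile normalization gave 4 calls in place of 2 in the N-acylethanolamine list and 1 in place of 3 in the monoacylglycerol list, both in DOX_IFNg minus Con. The filter on dim genes gave 4 in place of 2 in the first of these, 5 in place of 3 among the alpha/beta hydrolases in DOX_IFNg minus Con, and 2 in place of 4 among the phospholipases A2 in DOX minus Con. This filter left 5, 11 and 6 genes of these 3 lists to be tested, against 13, 19 and 26, so the counts are over different genes. Among the phospholipases A2 it took out the called Pla2r1 and Pnpla7, whose means over all arrays (4.64 and 4.62) were under the dim limit. The cause of the other shifts was not tested. Of 18 list calls in DOX minus Con, 4 were lost when some array was left out and 10 within the 6 arrays. Of 20 in DOX_IFNg minus Con, 7 and 13 were lost. Those lost within the 6 arrays, where 1 Con array remained, kept 0.569 to 1.097 and 0.667 to 1.231 times their reported differences, and 4 of 10 and 5 of 13 were at least as large as reported.

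Same-numbered arrays did not pair throughout, since 3 of 9 pairs had deviations correlated over 0.1 and the range was -0.159 to 0.358. The highest were Con with DOX_IFNg at replicate 1 (0.358) and at replicate 3 (0.326). Arrays with different numbers reached at most 0.278. A partial pairing of Con and DOX_IFNg was not tested beyond the replicate block. The replicate block gave 4472 and 4988 calls in the comparisons with Con. In DOX_IFNg minus DOX it gave 0 calls (1642 at an unadjusted p under 0.05), with limma adjusted p = 0.891 for Pinlyp and 0.998 for Abhd4. It ended 2 list calls in DOX minus Con and 4 in DOX_IFNg minus Con. Signal near the dim limit bounds what can be seen of most Ly6/PLAUR genes.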
